A study of Mus musculus with 36 samples.

Results

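The serpins are a family of protease inhibitors and related carrier proteins, and 40 of their genes gave a usable signal in mouse liver out of 63 serpin genes on the array and 23095 genes tested in all. A gene was taken as a serpin when its name in the scanner files began with Serpin, a clade letter from a to i and a number. Serpina6 was left out. The gene was kept when a probe was well above background on at least 6 of 36 arrays, and its brightest such probe stands for it. Clade A gave 23 members of 25 genes on the array, clade B 9 of 27, clade E 2 of 3, clade F 2 of 2, and clades C, D, G and H 1 of 1 each. Both clade I genes and 21 others were not kept. These 23 genes were well above background on at most 4 arrays, and 15 of them on none.

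Liver RNA came from 36 male mice of 11 weeks, each on 1 array, in 6 groups of 6 mice. Mice labelled IRLKO carried an insulin receptor gene (Insr) with exon 4 flanked by loxP sites, and a tamoxifen-inducible Cre driven in liver by the transthyretin promoter (TTR-CreTam). They are called knockouts here, and mice labelled IRLWT are called controls. Both were of a C57BL/6J cross, ate chow freely and were sampled at ZT8, ZT12 or ZT16, that is 8, 12 or 16 h after lights-on, with darkness from ZT12. The labels say of treatment that the mice had none. When tamoxifen was given, and whether controls carried Cre, is not stated in them. The transthyretin promoter is active in hepatocytes. The receptor in other liver cells was not measured apart.

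A serpin inhibits its target by offering an exposed loop as bait. The protease cuts the loop, stays bound to it and is carried across the serpin as the loop folds into the body of the inhibitor, which destroys both. Hepatocytes secrete most plasma serpins, among them α1-antitrypsin (the Serpina1 genes), the α1-antichymotrypsin relatives (the Serpina3 genes), antithrombin (Serpinc1), heparin cofactor II (Serpind1), α2-antiplasmin (Serpinf2) and C1 inhibitor (Serping1). Clade B serpins stay inside the cell, where they inhibit leaked granule and lysosomal proteases. Several serpins inhibit nothing and carry hormones or, like Serpinh1, fold collagen. In mice the α1-antitrypsin and α1-antichymotrypsin genes have multiplied into close copies on chromosome 12, and the Serpinb1, Serpinb6 and Serpinb9 genes on chromosome 13.

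Close copies can share signal, so the probe sequences are shown first. Each probe has 60 bases, and its position is given on build mm9, as in the scanner files. Probes of different serpin genes were aligned without gaps, and 12 pairs shared at least 25 bases at 85% identity or more. In each pair below, a stretch of 30 bases is printed 5′ to 3′ in lower case, with the bases that differ in capitals.
Serpina1a probe (chr12:105091819-105091878): Aatgtcatccttccttctgaattgggttcc
Serpina1c probe (chr12:105133165-105133224): Gatgtcatccttccttctgaattgggttcc
Serpina1c probe (chr12:105133165-105133224): cctaagaTgtcatccttccttctgaattgg
Serpina1e probe (chr12:105185172-105185231): cctaagaAgtcatccttccttctgaattgg
Serpina1b probe (chr12:104966520-104966579): gccccctatcCtgcGcttcGaccAcccttt
Serpina1e probe (chr12:105185280-105185339): gccccctatcTtgcActtcAaccGcccttt
The Serpina1a and Serpina1c probes had 1 mismatch over 51 aligned bases and the Serpina1c and Serpina1e probes 1 over 44. The Serpina1b probe and the dimmer Serpina1e probe had 4 mismatches over 42 bases. The accessions listed for the Serpina1c probe also name Serpina1a and Serpina1b, and those for the Serpina1d probe also name Serpina1b. The signals of Serpina1a to Serpina1e are therefore given as those of probes, and cannot be assigned to single copies. No probe of the dim Serpina1f was in such a pair.

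The next pairs bear on the Serpina3, Serpinb6 and Serpinb9 genes.
Serpina3h probe (chr12:105491733-105491792): GgtcaaaTtAaTtctaTgttgtgAaaaaat
Serpina3i probe (chr12:105506705-105506764): AgtcaaaGtTaAtctaCgttgtgGaaaaat
Serpinb6a probe (chr13:34009796-34009855): ccttatccataagtgcaatgGcaATtatga
Serpinb6c probe (chr13:33971703-33971762): ccttatccataagtgcaatgAcaGCtatga
Serpinb6a probe (chr13:34009796-34009855): aaGtGCaatgGcaAttatgaaataaagggC
Serpinb6e probe (chr13:33924218-33924277): aaAtATaatgAcaGttatgaaataaagggT
Serpinb9f probe (chr13:33427039-33427098): GcagTgagtcctctaacaaatggccatttc
Serpinb9g probe (chr13:33587669-33587728): AcagAgagtcctctaacaaatggccatttc
The Serpina3h probe differed from the dimmer Serpina3i probe at 6 of 57 bases. The former was well above background on 36 arrays and the latter on 15. The Serpinb6e probe differed from the Serpinb6a probe at 6 of 48 bases and was well above background on 1 array, against 36 for Serpinb6a. The Serpinb9g probe, with 4 differences over 53 bases, was above it on 0 arrays, against 29 for Serpinb9f. The Serpinb6a and Serpinb6c probes differed at 3 of 42 bases and both were well above background on 36 arrays. No shared stretch of this length was found among the probes that stand for Serpina3f, Serpina3g, Serpina3h, Serpina3j, Serpina3k, Serpina3m and Serpina3n.

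All levels are log2 of the processed signal relative to the array's 75th percentile, so 0 is that percentile and 1 unit is a doubling. A probe's level is compared between groups only, not with another probe's. Differences are log2 estimates with standard error (SE) from limma, and a gene is called when its p-value, adjusted by Benjamini-Hochberg over all 23095 genes, is below 0.05. The 75th percentile signal ran from 311 to 525 intensity units over the arrays, and no spot was saturated. At ZT12 it was higher in knockouts (394 to 525) than in controls (343 to 390), without overlap, while at ZT8 and ZT16 the genotypes overlapped. Its part in small genotype differences was not tested. Insr itself differed by -1.77, -1.88 and -1.65 in knockouts at ZT8, ZT12 and ZT16 (SE 0.13), 27.2% to 31.8% of control, with no overlap between genotypes. With the normexp background correction the differences were -0.98, -1.02 and -0.92. Whether its probe reads the exon flanked by loxP is not given in the files. Among the ZT8 knockouts replicate 3 stood off from the rest, and calls on the genotype differences that it changes are given with and without it. The labels do not say whether the mice of a group shared a litter or cage.

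Serpins were called often, in both directions, and so were genes at large. At ZT8, 24 of 40 members were called, 11 higher and 13 lower in knockouts, and 35.4% of all genes were called. At ZT12 it was 29 members, 12 higher and 17 lower, with 42.2% of all genes called. At ZT16 it was 28 members, 12 higher and 16 lower, with 39.9% of all genes called. The median absolute difference of the members was 0.45, 0.57 and 0.58 at ZT8, ZT12 and ZT16, against 0.25, 0.29 and 0.28 over all genes. Groups of 6 mice did not overlap for 14, 20 and 21 members, where 15.5%, 21.3% and 19.2% of all genes had none. The median signed difference was near 0 for all genes (0.01, -0.02 and 0.00) and -0.02, -0.19 and -0.02 for the members.

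Of the members, 10 were called higher at all 3 times, as were 8.89% of all genes, and 12 were called lower at all 3 times, as were 10.6%. Those higher were Serpina3f, Serpina3g, Serpina3n, Serpina7, Serpinb1a, Serpinb1c, Serpinb6a, Serpinb6c, Serpinb8 and Serpinb9. Those lower were Serpina1d, Serpina1f, Serpina3h, Serpina3j, Serpina3k, Serpina3m, Serpina4-ps1, Serpina11, Serpina12, Serpinc1, Serpind1 and Serpine2. The clades differed in direction. In clade A, 5 members were higher and 10 lower at ZT8, and 4 higher and 13 lower at both ZT12 and ZT16. The lower ones include the probes of Serpina1b, Serpina1c, Serpina1d and Serpina1e at ZT12, and of Serpina1c and Serpina1d at ZT16. These cannot be assigned to single copies, and for Serpina1b and Serpina1c no direction is given below. In clade B, 6 were higher at ZT8 and 7 at ZT12 and ZT16, and 0 of 9 were called lower. Serpinb8, among these, had a dimmer probe that went the other way, as described below. The clade medians were -0.34, -0.24 and -0.33 in A and 0.45, 0.79 and 0.71 in B. The difference between clades was not tested, since genes of a clade are not replicates.

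**Figure D1:**
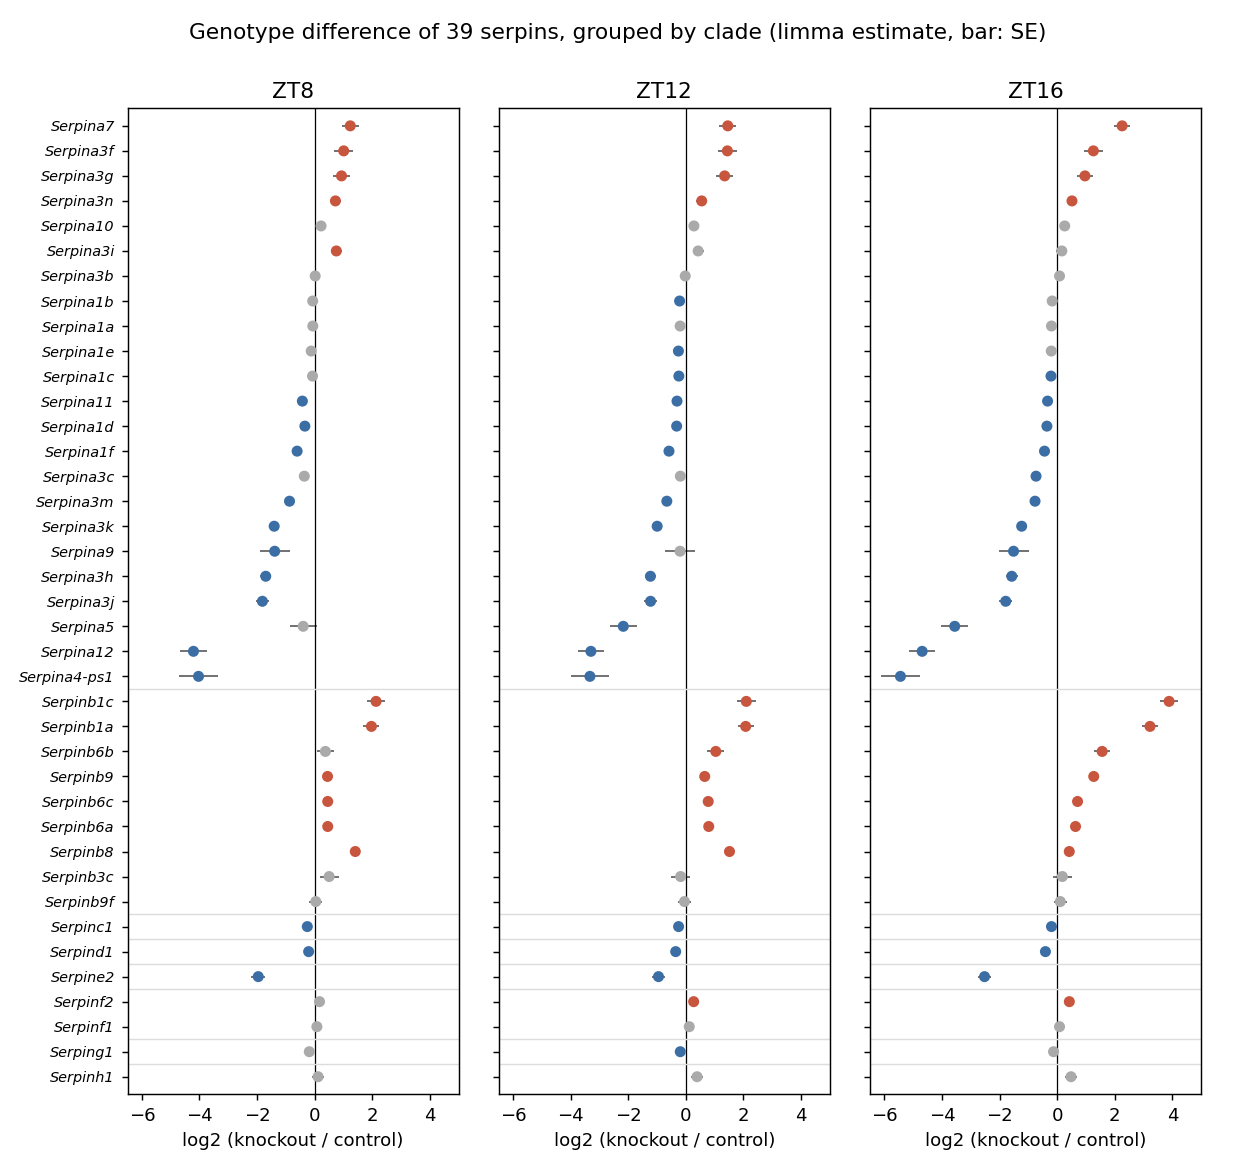
Log2 ratio of knockout to control for 39 serpins at ZT8, ZT12 and ZT16 (limma estimate, bar SE), in blocks by clade from A at the top to H. Red points were called higher, blue lower and grey not called. The largest falls are in clade A and all called clade B points lie to the right of 0. Serpina12 at ZT8 and ZT16, Serpina5 at all 3 times and Serpinb1c at ZT12 and ZT16 had a group below background. Their points are measured values. The text gives bounds, not strict for Serpina5 and Serpinb1c at ZT12, and none for Serpina5 at ZT8.

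The largest falls were of neighbours in the middle of the chromosome 12 cluster. Serpina12 encodes vaspin, a serpin secreted by liver and fat that inhibits kallikrein 7. Its level in ZT8 controls ran from -2.86 to -1.72 with a median of -2.30, and in ZT8 knockouts from -7.03 to -5.83 with a median of -6.43. At ZT16 controls ran from -4.05 to -1.45 around -2.07 and knockouts from -7.79 to -6.13 around -6.96. The genotypes did not overlap, and no knockout was well above background at either time, so Serpina12 was at least 7.29-fold higher in controls at ZT8 and at least 6.76-fold at ZT16 (limma adjusted p = 1.9e-08 and 1.8e-09). These bounds set the mean of the controls (-2.24 and -2.29) against the lowest signal well above background on each knockout array, and the measured knockout means were -6.44 and -7.00. At ZT12 the knockouts spread from -7.34 to -3.84 around -5.10, 3 of 6 above background, and controls from -2.88 to -1.31 around -1.95. The groups again did not overlap, and the ZT12 difference was -3.30 (SE 0.46, limma adjusted p = 9.8e-07).

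Serpina4-ps1, the mouse relative of the kallikrein inhibitor kallistatin that is annotated as a pseudogene, lies next to Serpina12. Controls ran from -1.96 to 1.44 around -0.71 at ZT8, from 0.82 to 2.98 around 2.11 at ZT12 and from 0.45 to 3.29 around 2.16 at ZT16. Knockouts ran from -5.22 to -3.73 around -4.60, from -4.31 to 0.81 around -1.36 and from -4.09 to -2.81 around -3.34. Every knockout lay below every control of its time, if only just at ZT12. The measured differences were -4.03, -3.33 and -5.44 (SE 0.67), or 16.4-fold lower at ZT8 and 43.5-fold at ZT16 (limma adjusted p = 2.0e-05, 1.8e-04 and 1.3e-07). In ZT8 knockouts 5 of 6 were above background, and 6 of 6 in every other group. The knockout means at ZT8 and ZT16 were -4.53 and -3.45. The lowest signal well above background averaged -5.10 and -5.05 on those arrays, so these folds rest on dim knockout values.

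Serpina5, protein C inhibitor, which in mice is best known from the reproductive tract, is the next gene. In ZT8 mice of both genotypes it was near background, with 1 of 6 controls and 0 of 6 knockouts above it, so that no fold can be given. The measured difference of -0.40 (SE 0.46) was not called. At ZT12 controls ran from -5.91 to -3.85 around -4.58, with 4 of 6 above background, and at ZT16 from -3.91 to -2.7 around -3.56, with 6 of 6. Knockouts ran from -7.47 to -5.84 around -7.16 and from -7.75 to -5.60 around -7.12, with 0 of 6 above it at both times. Serpina5 was thus at least 3.08-fold higher in controls at ZT16. At ZT12 the mean of the controls was 1.34-fold above the lowest signal well above background on knockout arrays. That mean takes each control as measured, also below background, so 1.34 is not a strict bound. Measured means of controls and knockouts were -4.73 and -6.87 at ZT12 and -3.43 and -7.02 at ZT16. Their differences had limma adjusted p = 3.7e-04 and 3.7e-07.

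Serpina9, first described in germinal centre B cells and also called centerin, lies on the other side of Serpina12. It ran from -1.95 to 0.35 around -0.13 in ZT8 controls and from -3.06 to -0.84 around -1.94 in ZT8 knockouts. The groups overlapped at all times. Its differences were -1.39, -0.20 and -1.52 (SE 0.52), called at ZT8 and ZT16 (limma adjusted p = 0.038 and 0.021). The ZT8 call was lost without knockout ZT8 replicate 3 (-1.33, adjusted p = 0.063) and in 6 other fits that left out 1 array. At ZT16 the difference was 0.41 within wash batch 1, against -0.75 and -2.85 in the others.

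**Figure D2:**
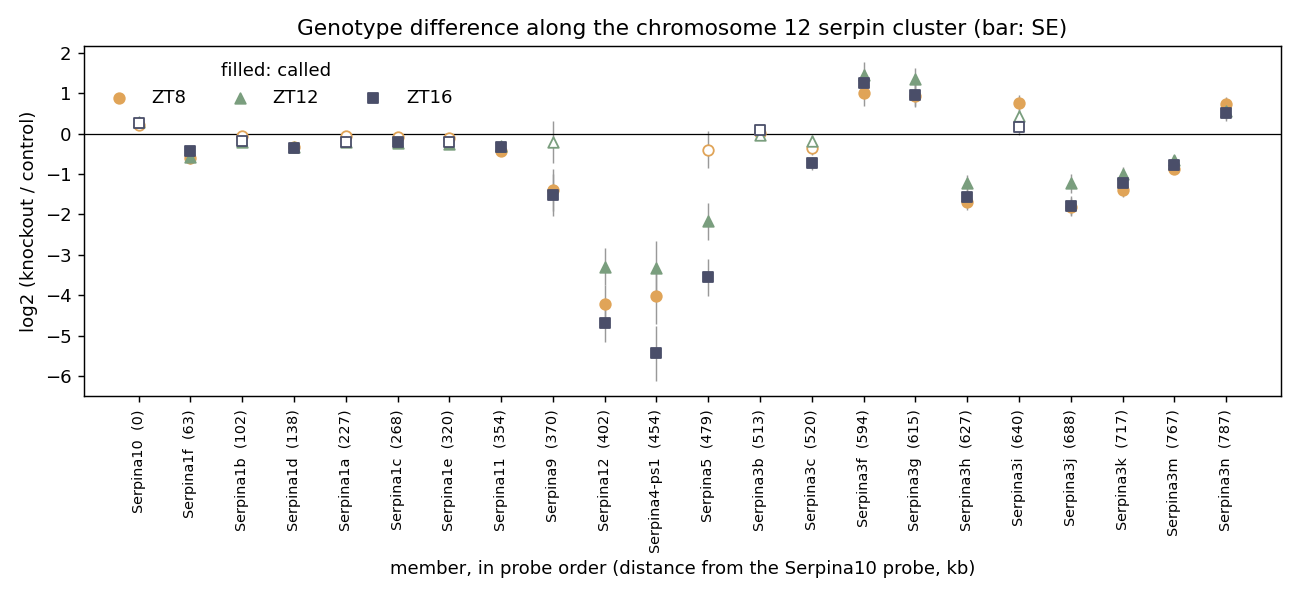
Log2 ratio of knockout to control (bar SE) for the 22 members on chromosome 12, in the order of their probes, with the distance from the Serpina10 probe in kb in brackets. Circles are ZT8, triangles ZT12 and squares ZT16, filled where called. The lowest points are Serpina12, Serpina4-ps1 and Serpina5, while members called higher (Serpina3f, Serpina3g, Serpina3i and Serpina3n) lie beside members called lower.

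The 22 chromosome 12 members span 787 kb between their probes. From Serpina9 to Serpina5, 4 successive members were called lower at ZT16. Serpina11, a serpin of little known function that flanks Serpina9, was lower by a much smaller amount, -0.43, -0.31 and -0.33 (SE 0.10). At the start of the cluster Serpina10, the protein Z-dependent inhibitor of factor X, was not called, with 0.22, 0.28 and 0.26 (SE 0.12). Its dimmer probe gave 0.41, 0.27 and 0.49, each called over all probes. The direction changed within the Serpina3 block, where called neighbours went opposite ways.

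The Serpina1 probes read the α1-antitrypsin copies, the main plasma inhibitors of neutrophil elastase. They showed small differences. Serpina1d ran from 9.34 to 9.67 around 9.56 in ZT8 controls and from 8.92 to 9.40 around 9.17 in ZT8 knockouts, and was -0.34, -0.32 and -0.36 (SE 0.07, 1.25- to 1.28-fold lower), called at all times. Its spot on 1 array of the ZT12 knockouts was marked an outlier, so that its ZT12 value rests on 5 knockouts. Serpina1a, Serpina1b, Serpina1c and Serpina1e lay between -0.12 and -0.06 at ZT8, where none was called, between -0.26 and -0.20 at ZT12, where the latter 3 were called, and between -0.21 and -0.17 at ZT16, where Serpina1c alone was called. The dimmer Serpina1a probe gave -0.23, -0.23 and -0.20, called over all probes at ZT8 and ZT12. That of Serpina1e gave -0.11, -0.22 and -0.19, not called. The direction of Serpina1a, Serpina1b and Serpina1c turned at all times under quantile normalization (0.0007 to 0.0684) and, but for Serpina1c at ZT16, in the authors' own processed table (0.0231 to 0.113), so no direction is given for them. Without knockout ZT8 replicate 3, Serpina1a was called at ZT12 and ZT16 (-0.20 and -0.21, limma adjusted p = 0.023 and 0.022), and Serpina1b and Serpina1e at ZT16 (-0.18 and -0.21, limma adjusted p = 0.044 and 0.013). Serpina1f, a dim copy expressed mostly outside the liver, was -0.61, -0.59 and -0.44 (SE 0.14) and called at all times, with 2 to 4 of 6 knockouts above background.

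The Serpina3 genes, 10 of which were measured, split into a lower and a higher set. Human has 1 α1-antichymotrypsin, an acute phase inhibitor of cathepsin G. In mice Serpina3k, also called contrapsin, is an abundant plasma serpin. Serpina3k ran from 8.46 to 8.59 around 8.54 in ZT8 controls, from 8.36 to 8.96 around 8.74 at ZT12 and from 8.55 to 8.93 around 8.82 at ZT16. Knockouts ran from 6.10 to 7.75 around 7.20, from 7.23 to 8.15 around 7.80 and from 7.44 to 7.71 around 7.53. The genotypes did not overlap at any time, and the lowest ZT8 knockout was replicate 3. The differences were -1.41, -1.0 and -1.23 (SE 0.17), or 2.65-fold, 2.0-fold and 2.35-fold lower (limma adjusted p = 8.4e-08, 1.6e-05 and 6.4e-07).

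Serpina3h, Serpina3j and Serpina3m went with it, each lower at all 3 times without overlap. Serpina3j ran from 3.88 to 4.21 in ZT8 controls and from 0.92 to 3.13 in ZT8 knockouts, and was -1.82, -1.23 and -1.79 (SE 0.23). Serpina3h was -1.70, -1.23 and -1.58 (SE 0.20). Serpina3m was -0.87, -0.66 and -0.77 (SE 0.12). Serpina3c, also called kallikrein-binding protein, was -0.36, -0.19 and -0.73 (SE 0.17) and called at ZT16.

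Serpina3g, an intracellular member also called Spi2A that inhibits lysosomal cathepsins, was higher. It ran from 0.40 to 1.35 around 1.20 in ZT8 controls and from 1.35 to 3.71 around 1.87 in ZT8 knockouts. At ZT12 controls ran from 0.20 to 1.07 around 0.51 and knockouts from 1.44 to 3.21 around 1.58, and at ZT16 they ran from 0.05 to 0.68 around 0.60 and from 1.06 to 1.88 around 1.53. Knockouts were above controls at each time, by 0.93, 1.35 and 0.96 (SE 0.28, limma adjusted p = 0.010, 3.1e-04 and 0.0072). Its ZT8 difference was 0.59 without knockout ZT8 replicate 3 (limma adjusted p = 0.044). Knockout ZT8 replicate 3 and ZT12 replicate 6 were far above the other knockouts of their time. Replicate 6 was the only ZT12 knockout of wash batch 3. There the ZT12 difference of Serpina3g was 2.66, against 0.95 and 1.14 within the other batches.

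Serpina3f, a close relative, was 1.01, 1.44 and 1.26 higher (SE 0.34) and showed the same 2 high mice. Its ZT12 difference was 3.35 within wash batch 3, against 0.62 and 1.27 within the others. Without knockout ZT8 replicate 3 its ZT8 difference was 0.64 and no longer called (limma adjusted p = 0.085). The file's other Serpina3f probe (chr12:105492556-105492615) lies 0.82 kb from the Serpina3h probe, while the probe used here lies 32.7 kb from it, and its accessions also name Serpina3h. That probe gave 0.55, 0.63 and 0.14, called over all probes at ZT8 and ZT12. Serpina3n, the Serpina3 copy best known as an acute phase gene, was 0.72, 0.55 and 0.51 higher (SE 0.19) and its groups overlapped at each time. Serpina3i, a dim copy, was 0.75 higher at ZT8 (SE 0.19) and not called later (0.42 and 0.16). With the normexp background correction it was 0.14, -0.01 and -0.08. The dimmer Serpina3i probe, well above background on 15 arrays, gave 1.15, 1.07 and 0.26, called over all probes at ZT8 and ZT12. Serpina3b lay between -0.02 and 0.08 and was not called.

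Levels of some paralogs also went together from mouse to mouse. Wash batch was not removed from these levels, and no unrelated serpins were paired for comparison. Variation that many probes of an array share therefore cannot be told apart from variation of paralogs. Over 36 arrays, after subtracting each group's mean, Serpina3h and Serpina3k had Pearson r = 0.947 and Spearman rho = 0.887, although their probes share no stretch (both permutation p = 1e-05, the smallest that 100000 permutations within groups can give, adjusted 2e-05 over 10 pairs). Without the 2 arrays farthest from the Serpina3h median r was 0.897. Serpina3f and Serpina3g had r = 0.945 and rho = 0.883 (same p values), and 0.865 without 2 arrays. Serpina3k and Serpina3m had r = 0.879 and rho = 0.646 (permutation p = 6e-05 and 0.0006, adjusted 9e-05 and 0.0009), and 0.742 without 2 arrays. Serpina3g and Serpina3k had r = -0.64 and rho = -0.334 (permutation p = 0.02 and 0.06, adjusted 0.02 and 0.08). Their r was -0.296 without 2 arrays, so that this relation rests on those.

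Pairs whose probes do share a stretch were as close. Serpina1a and Serpina1c had r = 0.972 and rho = 0.949, and 0.965 without 2 arrays. Serpina1c and Serpina1e had r = 0.977 and rho = 0.948, and 0.970 without 2 arrays. Serpinb6a and Serpinb6c had r = 0.912 and rho = 0.884, and 0.893 without 2 arrays. Serpina1b and Serpina1c, which share no stretch between the probes used, had r = 0.949 and rho = 0.928, and 0.930 without 2 arrays. Each of these 4 had permutation p = 1e-05 and an adjusted 2e-05 for both measures. By contrast Serpina1c and Serpina1f had r = 0.108 and rho = 0.091 (permutation p = 0.5 and 0.6, adjusted 0.5 and 0.6; r = 0.15 without 2 arrays). Serpinb6a and Serpinb6b had r = 0.215 and rho = 0.196 (permutation p = 0.3 for both, adjusted 0.3; r = 0.180 without 2 arrays). A shared probe stretch and genes that vary together cannot be told apart in the 3 pairs that share one, nor in that of Serpina1b and Serpina1c, since the accessions of the Serpina1c probe also name Serpina1b.

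Serpina7, thyroxine-binding globulin, which carries thyroid hormone in plasma and does not inhibit proteases, was the clade A member with the largest rise. Controls ran from -0.63 to 0.55 around 0.16 at ZT8, from -1.19 to -0.41 around -0.79 at ZT12 and from -2.05 to -0.57 around -1.48 at ZT16. Knockouts ran from 0.69 to 2.32 around 1.23, from -0.26 to 1.42 around 0.52 and from 0.28 to 1.42 around 0.71. The genotypes did not overlap. The differences were 1.24, 1.45 and 2.26 (SE 0.29), or 2.36-fold, 2.74-fold and 4.78-fold higher (limma adjusted p = 0.0012, 1.7e-04 and 3.0e-07).

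**Figure D3:**
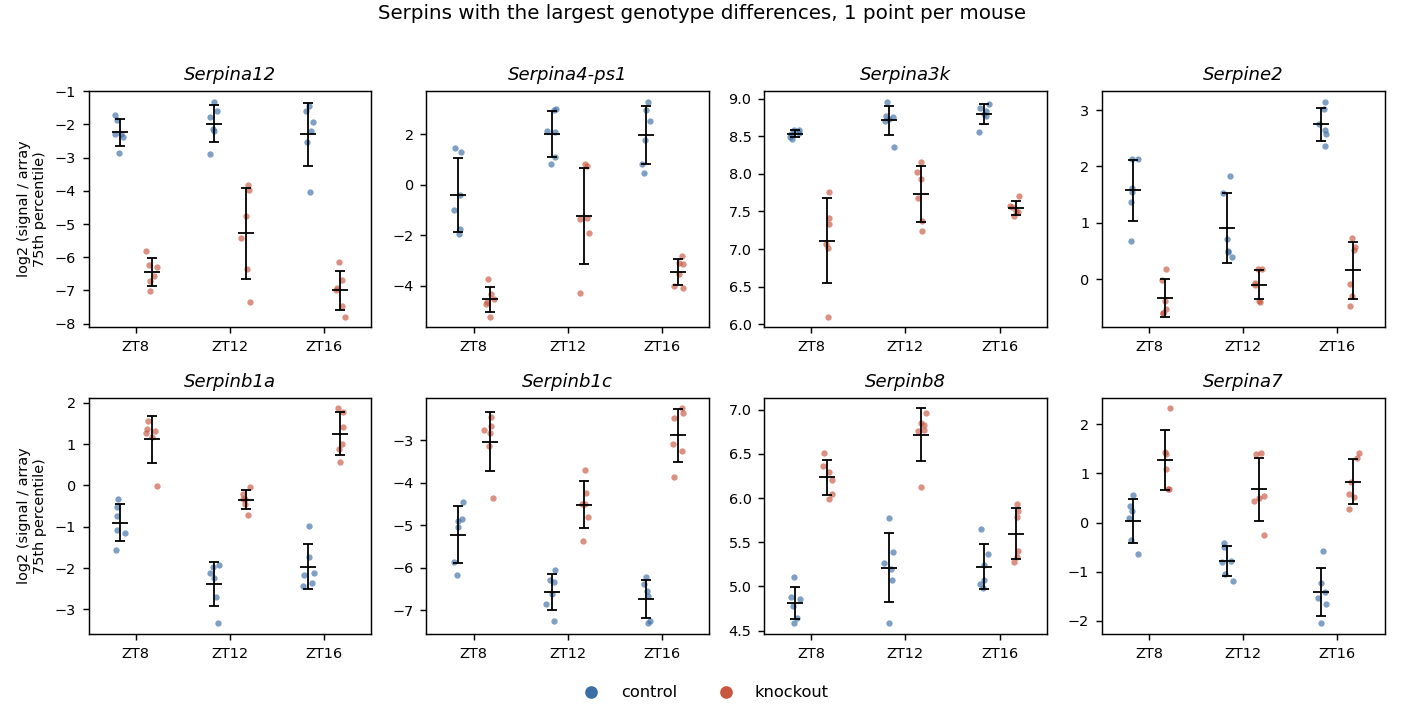
Level of 8 serpins in each mouse (points, log2 signal over the array's 75th percentile) by time, controls in blue and knockouts in red, with mean and SD bars (n = 6). The genotypes do not overlap in any of the 8 at ZT8 and ZT12, nor at ZT16 in any but Serpinb8.

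By their brightest probes, clade B members were higher in knockouts wherever they were called, while a dim Serpinb8 probe went the other way. Serpinb1a inhibits neutrophil elastase, cathepsin G and proteinase 3, and is also secreted by liver. It ran from -1.56 to -0.32 around -0.91 in ZT8 controls, from -3.34 to -1.94 around -2.18 at ZT12 and from -2.45 to -0.98 around -2.15 at ZT16. Knockouts ran from -0.01 to 1.56 around 1.30, from -0.73 to -0.04 around -0.33 and from 0.56 to 1.87 around 1.22. Every knockout was above every control of its time, by 1.97, 2.08 and 3.22 (SE 0.28), or 3.92-fold, 4.22-fold and 9.35-fold (limma adjusted p = 1.5e-06, 4.7e-07 and 1.3e-10).

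Serpinb1c, a copy of Serpinb1a, showed the same order at a dim level. In ZT8 mice it ran from -6.17 to -4.46 in controls, with 1 of 6 above background, and from -4.36 to -2.45 in knockouts, with 6 of 6, a difference of 2.13 (SE 0.32, limma adjusted p = 5.2e-06). Later no control was above background. Knockouts were at least 4.29-fold higher at ZT16, where 6 of 6 were above it. At ZT12, where 5 of 6 were, their mean was 1.47-fold above the lowest signal well above background on control arrays. That mean takes each knockout as measured, also below background, so 1.47 is not a strict bound. The measured differences had limma adjusted p = 5.0e-06 at ZT12 and 7.2e-11 at ZT16. The measured means were -6.57 in controls and -4.52 in knockouts at ZT12, and -6.73 and -2.89 at ZT16. With the normexp background correction the ZT12 difference was 0.15 and was not called. The Serpinb1b probe was well above background on 2 arrays and was not kept.

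Serpinb6a and Serpinb6c, copies of an inhibitor of cathepsin G and related proteases, rose by similar amounts and share a probe stretch. Serpinb6a ran from 1.64 to 2.07 around 1.88 in ZT12 controls and from 2.45 to 3.03 around 2.56 in ZT12 knockouts, and was 0.45, 0.79 and 0.64 higher (SE 0.11). Serpinb6c was 0.45, 0.77 and 0.71 higher (SE 0.13). Their groups did not overlap at ZT12 and ZT16. A dimmer Serpinb6a probe gave 0.23, 0.97 and 0.62, and another -0.21, 0.34 and 0.84. Serpinb6b, whose level did not follow Serpinb6a from mouse to mouse, was 0.37, 1.04 and 1.56 higher (SE 0.29) and called at ZT12 and ZT16, with overlap at both.

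Serpinb9, the inhibitor of granzyme B that protects killer cells from their own granules, ran from -0.35 to 0.07 around -0.24 in ZT8 controls and from -0.25 to 0.80 around 0.26 in ZT8 knockouts. At ZT16 controls ran from -1.66 to -1.40 around -1.51 and knockouts from -0.72 to 0.005 around -0.17. The differences were 0.45, 0.65 and 1.27 (SE 0.14, limma adjusted p = 0.016, 5.3e-04 and 3.0e-08), with overlap at ZT8 and none at ZT12 and ZT16. Without knockout ZT8 replicate 3 the ZT8 difference was 0.33 and not called (adjusted p = 0.062). Serpinb3c (0.50, -0.18 and 0.18, SE 0.33) and Serpinb9f (0.04, -0.05 and 0.11, SE 0.23), both dim, were not called at any time.

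Serpinb8, an intracellular inhibitor of furin-like proteases, had the most conflicting probes. By its brightest probe (chr1:109504865-109504924) it ran from 4.59 to 5.11 around 4.82 in ZT8 controls and from 5.99 to 6.51 around 6.25 in ZT8 knockouts. It was 1.41, 1.51 and 0.42 higher in knockouts (SE 0.14, limma adjusted p = 4.9e-09, 1.1e-09 and 0.020). A dim probe (chr1:109499452-109501197, a span longer than the probe), well above background on 10 arrays, was -0.92, -1.27 and -0.65, and lower over all probes at ZT8 and ZT12 (limma adjusted p = 0.025 and 0.0019). No direction can be given for the gene as a whole.

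**Figure D4:**
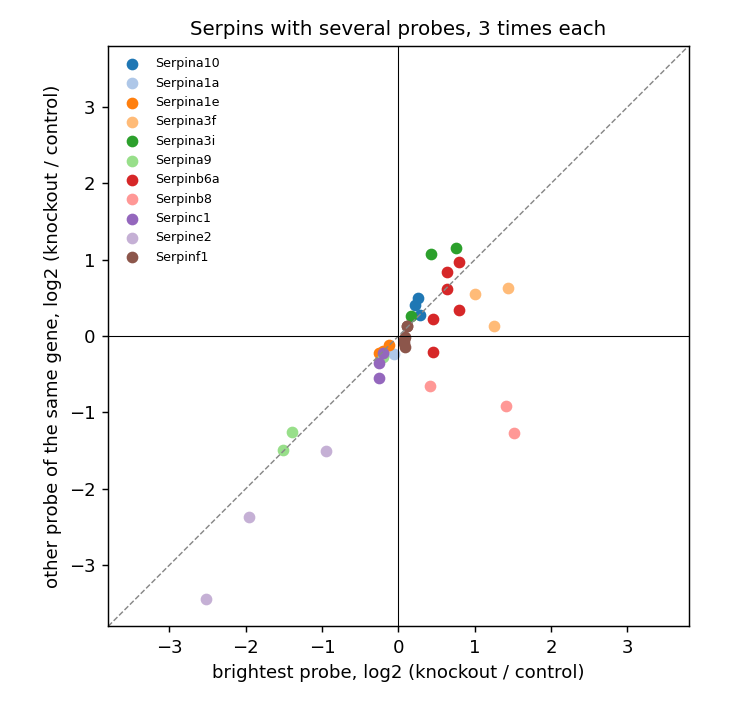
Log2 ratio of knockout to control by a gene's brightest probe (x axis) and by each of its other kept probes (y axis), for 11 serpins with several kept probes at 3 times. The dashed line marks equal ratios. Serpinb8 lies in the lower right, with 1.41 against -0.92 at ZT8, while Serpine2 lies lower left.

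Over 39 such comparisons of probes of 1 gene, 8 had opposite signs. Of these, 3 were of Serpinb8, 4 of Serpinf1, whose differences were near 0, and 1 of Serpinb6a. In 12 comparisons both probes were called with the same sign, and in 2, both of Serpinb8, with opposite signs.

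Markers of other cells rose in knockouts beside the clade B members, and their part in these results was not tested. For the marker lists here and in the next paragraph, the share of all genes called in either direction was 35.4%, 42.2% and 39.9%. Of 7 fitted T and NK cell markers, 5 were called higher at each time, with Cd3e lower at ZT12. The list's summed linear signal (in units of the 75th percentile) was 3.10 to 3.86 in ZT8 controls and 3.55 to 7.48 in ZT8 knockouts, and 2.78 to 3.86 and 3.44 to 5.42 at ZT16. Of 3 B cell markers, 2 were higher at ZT8 and all at ZT12 and ZT16 (0.397 to 0.654 in ZT16 controls, 0.905 to 2.67 in ZT16 knockouts). Of 9 macrophage and Kupffer cell markers, 2, 5 and 3 were higher (47.6 to 166 in ZT16 controls, 99.8 to 329 in ZT16 knockouts). Of 9 neutrophil markers, 1 was higher at ZT8, 3 at ZT16 and 1 lower at ZT12 (1.60 to 4.20 and 3.11 to 6.84 at ZT16). Endothelial markers were higher for 0, 7 and 6 of 8, and stellate cell and fibroblast markers for 0, 4 and 4 of 10, with 1 lower at ZT12 and ZT16. Among the defining markers, Cd79a, Cd8a and Ncr1 were not kept. In whole liver, fewer cells of a type and less RNA per cell cannot be told apart.

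Of 9 hepatocyte markers 8 were fitted, each well above background on all arrays, with 1, 2 and 2 called higher and 2, 3 and 2 lower. Their summed signal was 3569 to 4257 in ZT8 controls and 2660 to 3978 in ZT8 knockouts. At ZT12 it was 3871 to 4104 and 3193 to 3912, and at ZT16 3776 to 4218 and 3314 to 3902. Alb was -0.41, -0.35 and -0.39, called lower at each time, and Pck1 was 1.39, 1.42 and 1.28, called higher. Ttr, whose promoter drives the Cre, was -1.12, -1.02 and -0.97 in knockouts. Of the remaining lists, called higher and lower members at ZT16 were 1 and 0 of 6 for bile duct, 0 and 0 of 4 for mesothelium, 2 and 1 of 5 for red cells, 1 and 2 of 3 for pancreas, 0 and 1 of 4 for fat and 0 and 0 of 4 for skin.

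The plasma inhibitors of coagulation, fibrinolysis and complement moved little. Serpinc1, antithrombin, which inhibits thrombin and factor Xa, ran from 9.11 to 9.30 around 9.22 in ZT8 controls and from 8.66 to 9.16 around 9.0 in ZT8 knockouts. It was -0.25, -0.25 and -0.20 (SE 0.07, 1.15- to 1.19-fold lower) and called each time. Its dimmer probe gave -0.35, -0.55 and -0.22, called over all probes at ZT8 and ZT12. Serpind1, heparin cofactor II, was -0.21, -0.36 and -0.41 (SE 0.07). It ran from 6.63 to 6.78 in ZT16 controls and from 6.21 to 6.41 in ZT16 knockouts, with no overlap. Serpinf2, α2-antiplasmin, the main plasmin inhibitor, went up instead, by 0.17, 0.27 and 0.42 (SE 0.07), and was called at ZT12 and ZT16 (limma adjusted p = 0.0026 and 1.7e-05). Serping1, which inhibits C1r, C1s and plasma kallikrein, was -0.19, -0.20 and -0.13 (SE 0.07) and called at ZT12 only (limma adjusted p = 0.035). Serpinf1, the neurotrophic factor PEDF, which inhibits nothing, was 0.08, 0.12 and 0.08 (SE 0.07) and not called. The ZT8 differences of Serpinf1 and Serpinf2 without knockout ZT8 replicate 3 were 0.17 and 0.20 and called (limma adjusted p = 0.017 and 0.026).

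The proteases and cofactors that these serpins act on or with were called lower more often than higher. Of 27 fitted of 29 listed, 13, 16 and 15 were called lower and 2, 3 and 3 higher. In either direction 35.4%, 42.2% and 39.9% of all genes were called. The medians were -0.20, -0.24 and -0.23 against 0.01, -0.02 and 0.00 over all genes. Factor XI (F11) was -1.25, -1.18 and -1.36, the complement protease Masp1 -0.71, -1.05 and -1.19, and protein C (Proc) -0.48, -0.48 and -0.51, each called at each time. Plasminogen (Plg), the source of the target of Serpinf2, was 0.08, 0.15 and 0.00 and not called. Prtn3, proteinase 3, a target of Serpinb1a, was 3.74, 3.38 and 2.89 higher and called at each time, well above background on 32 arrays, while Elane and Ctsg, its companions in neutrophil granules, were 0.03, -0.21 and -0.07 and 0.05, 0.13 and -0.23, of which Elane at ZT12 alone was called. Granzyme B (Gzmb) was 1.42 higher at ZT12, where alone it was called.

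Serpine2, protease nexin 1, a cell-bound inhibitor of thrombin and urokinase, was the non-A member with the largest fall. Controls ran from 0.67 to 2.14 around 1.58 at ZT8, from 0.39 to 1.84 around 0.61 at ZT12 and from 2.36 to 3.15 around 2.7 at ZT16. Knockouts ran from -0.61 to 0.18 around -0.46, from -0.41 to 0.18 around -0.08 and from -0.47 to 0.72 around 0.21. The genotypes did not overlap. The differences were -1.96, -0.95 and -2.52 (SE 0.24), or 3.89-fold, 1.94-fold and 5.75-fold lower (limma adjusted p = 1.2e-07, 0.0017 and 7.6e-10). Its dimmer probe gave -2.36, -1.50 and -3.44.

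Serpinh1, the collagen chaperone Hsp47, was 0.12, 0.39 and 0.48 higher (SE 0.20) and not called, with a ZT16 adjusted p of 0.058 in limma that fell to 0.021 without knockout ZT8 replicate 3.

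The times were compared within each genotype. In controls 11 members differed between ZT8 and ZT16, 5 higher and 6 lower at ZT16, and 26.6% of all genes were called. Between ZT8 and ZT12 it was 8 members (14.9% of all genes) and between ZT12 and ZT16 it was 2 (3.62%). In knockouts 7 members differed between ZT8 and ZT16, 2 higher and 5 lower (28.9% of all genes), 12 between ZT8 and ZT12 (13.2%; 2 when the fit held those groups alone, and 6 without knockout ZT12 replicate 3) and 7 between ZT12 and ZT16 (12.6%). Comparisons within a genotype share the ZT8, ZT12 or ZT16 mice with each other and with the genotype comparisons.

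In controls Serpina4-ps1 rose from ZT8 to ZT16 by 2.40 (SE 0.67) and Serpine2 by 1.1 (SE 0.24). The measured difference of Serpina5 was 3.05 (SE 0.46), from 1 of 6 ZT8 controls above background to 6 of 6 at ZT16, and 0.63 with the normexp background correction, called in both. The values of Serpina4-ps1 and Serpine2 in knockouts were 0.99 and 0.54, neither called, and Serpina5 was below background in all knockouts. Without knockout ZT8 replicate 3 that of Serpine2 was 0.66 and called (limma adjusted p = 0.038). Serpinh1 rose in both, by 0.84 in controls (SE 0.20) and 1.20 in knockouts. Its ZT16 controls ran from 0.85 to 1.56, above all ZT8 controls (0.13 to 0.66). Of 11 heat shock genes, which like Serpinh1 answer to protein unfolding, 10 were called higher at ZT16 than ZT8 in controls, with a median of 1.74 against 0.04 over all genes. In knockouts 9 were, with a median of 0.95 against 0.01. Of 15 collagen genes and processing enzymes 3 were called higher and 0 lower in each genotype (median 0.15 in controls and 0.40 in knockouts). These 3 were the enzymes P4ha1, P4ha2 and Plod1, and no collagen was called. Rbm3 and Cirbp, which cold induces, were 0.25 and -2.0 in controls and -0.29 and -0.74 in knockouts.

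Serpina7 fell in controls by a log2 value of -1.47 (SE 0.29). The measured difference of Serpinb1c was -1.56 (SE 0.32), but 1 of 6 ZT8 and 0 of 6 ZT16 controls were above background, no bound above 1-fold can be given, and with the normexp background correction it was -0.15 and not called. Serpinb9 was -1.32 in controls and -0.50 in knockouts, and Serpinf2 -0.52 and -0.27, all called. Serpinb1a was -1.07 in controls, and 0.18 and not called in knockouts. The B cell markers also fell in controls, 3 of 3, with a median of -0.99, and their part in the fall of clade B members was not tested.

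**Figure D5:**
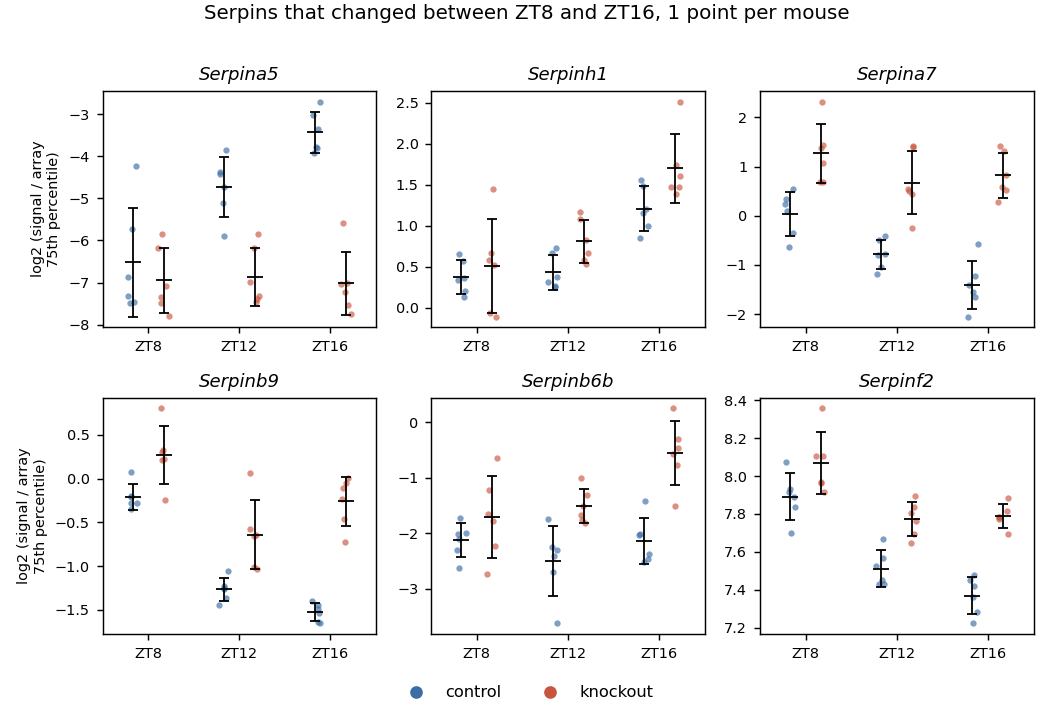
Level of 6 serpins that differed between ZT8 and ZT16 in a genotype, in each mouse (points, log2 signal over the array's 75th percentile), controls in blue and knockouts in red, with mean and SD bars (n = 6). Serpina5 at ZT16 is above background in controls and in no knockout, Serpinh1 climbs in both, and Serpinb9 and Serpinf2 fall in both.

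The genotype difference itself changed with time for few members. An F test over the 3 times called 5 of 40 members, and 8.45% of all genes. They were Serpinb8 (limma adjusted p = 7.8e-04), Serpina5 (0.0064), Serpine2 (0.0068), Serpinb1c (0.011) and Serpinb9 (0.019). The ZT16 difference minus the ZT8 difference was called for 5 members, and 9.73% of all genes. It was -3.16 as measured for Serpina5 (SE 0.66), which was near background at ZT8 in both genotypes and in all knockouts (-0.69 with normexp), 1.76 as measured for Serpinb1c (SE 0.46), whose controls were near background, 1.25 for Serpinb1a (SE 0.39), 0.82 for Serpinb9 (SE 0.20) and -0.99 for the brightest probe of Serpinb8 (SE 0.20). Without knockout ZT8 replicate 3 that of Serpinb1a was 0.97 and not called (adjusted p = 0.067), and those of Serpina7 and Serpinb6b, not called with it, were called (1.30 and 1.42, adjusted p = 0.021 and 0.014). The F test then also called Serpinb1a and Serpinb6b (adjusted p = 0.043 and 0.039). With the normexp background correction that of Serpinb1c was 0.21 and not called. For Serpine2 the ZT12 difference was the smallest of the 3, and its ZT16 minus ZT8 value of -0.56 (SE 0.34) was not called.

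Acute phase genes were looked at because Serpina3 genes belong to that response. Of 21 listed, 6, 6 and 7 were called higher and 5, 7 and 7 lower, where 35.4%, 42.2% and 39.9% of all genes were called in either direction. Saa4 was -1.38, -2.33 and -2.95, Saa1 was -2.45 at ZT12 and -1.88 at ZT16, and Il1rn, which blocks interleukin 1, was 3.99, 3.66 and 4.09 higher. Socs3 was 1.58, 1.1 and 1.41 higher and Lcn2 was 2.06 higher at ZT8 alone.

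Promoters of 31 of the 40 members were in the RefSeq table for GRCm38.p6, each from 250 bases before the start of transcription to 50 after it, and those of Serpina4-ps1, Serpina9, Serpina3k and 6 others were not used here. The 250 bases before the start are printed for Serpina12 and Serpina5, which lie on either side of Serpina4-ps1 and were lower in knockouts by the bounds above, with TTGCNNAA in capitals on either strand, a loose form of the site of the C/EBP factors.
Serpina12 (chr12:104044444-104044693, minus strand): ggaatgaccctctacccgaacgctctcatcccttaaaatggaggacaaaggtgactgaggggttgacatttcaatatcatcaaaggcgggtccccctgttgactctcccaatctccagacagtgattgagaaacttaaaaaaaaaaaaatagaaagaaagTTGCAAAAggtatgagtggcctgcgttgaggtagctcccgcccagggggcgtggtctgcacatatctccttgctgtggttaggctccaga
Serpina5 (chr12:104100863-104101112, plus strand): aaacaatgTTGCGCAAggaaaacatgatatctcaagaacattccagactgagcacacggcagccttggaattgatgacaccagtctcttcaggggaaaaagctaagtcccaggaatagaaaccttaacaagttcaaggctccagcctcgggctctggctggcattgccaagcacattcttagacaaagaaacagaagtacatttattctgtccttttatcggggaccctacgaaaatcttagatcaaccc
TTGCNNAA was in the window of 11 of 31 members and in 10.8% of all 32851 windows. The members were the close copies Serpina1a, Serpina1b, Serpina1d and Serpina1e, with Serpina1f, Serpina12, Serpina5, Serpinc1, Serpina3b, Serpina3f and Serpina7. Among them Serpina3f and Serpina7 were called higher at all 3 times and Serpina3b at none. A member was counted when any of its windows matched, but the share over all is per window (32851 windows of 27025 genes). For each motif these are unlike measures. TTCNNNGAA, the STAT site, which reads the same on both strands, was in 6 of 31 (Serpina1f, Serpina11, Serpina3f, Serpina3g, Serpina3i and Serpinb6a) and 8.3% of all. GTAAACA, the FoxO site, on either strand, was in 0 of 31 and 3.65% of all. A match is a run of letters only, and the motifs were chosen with the results known.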

How the data were processed

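RNA from 36 livers (200 ng each, Cy3) was hybridised to 1-colour Agilent SurePrint G3 mouse arrays. Per the file headers and the submitters' processing notes, the authors deposited scanner output of Agilent Feature Extraction 10.10.1.1, whose processed signal is a background-corrected intensity per spot, with flags for spots well above background, saturated or outlying. The authors also deposited a processed log2 table, used here as an alternative only. It is named as theirs wherever it is used, and how its values were made is not given in full in the sources used here.

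Here log2 processed intensity minus the log2 of each array's 75th percentile was used, without control and outlier spots, with spots of a probe averaged. Probes well above background on at least 6 arrays were kept (34769 of 56605), and the brightest probe stood for a gene. Of all 56605 probes, 32994 matched an accession of the RefSeq gene list (GRCm38.p6) and took its gene name. Serpin probes kept their name in the scanner files. The fit used limma 3.58.1 in R 4.3.3, with 6 groups and the wash batch (3 batches) as terms, eBayes and Benjamini-Hochberg adjustment over 23095 genes at 0.05. The script was tested on simulated data. Where every array of a group was below background, no fold was taken from the measured difference, and a bound was given where one exceeds 1-fold. The brighter group's mean took each array as measured, so a bound is strict only where all those arrays were above background. The adjusted p-value beside a bound belongs to the measured difference. P-values measure the spread between these mice. Alternatives were the background correction, normalization, the authors' table, filters, probe choice, batch and slide terms, a replicate block, the groups fitted and each array left out. The rule for naming took the largest called differences, the members called by the F test, the Serpina1 and Serpina3 paralogs and the plasma and matrix serpins. The remaining members and the few list genes were added after their values were seen. Of the 40 members, 39 are described and the other, kept in the counts, is not reported here. The members and lists were chosen with earlier results of these data known.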

Additional observations from a re-analysis of the deposited data

Results flagged for a closer look

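Single mice stood far from the other 5 of their group in 19 of 234 groups tested, where about 11.7 (1 in 20) are expected by chance. The ratio given with each is the mouse's gap to the nearest other, divided by the group's range.

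Knockout ZT8 replicate 3 accounted for 5. It was highest for Serpina3f at 0.26 (others -2.31 to -1.38, ratio 0.639) and for Serpina3g at 3.71 (others 1.35 to 2.05, ratio 0.705). It was lowest for Serpina3m at 8.01 (others 8.74 to 9.12, ratio 0.657), Serpinb1a at -0.01 (others 1.17 to 1.56, ratio 0.752) and Serpinb1c at -4.36 (others -3.13 to -2.45, ratio 0.644). Knockout ZT12 replicate 6 accounted for 5 more. It was highest for Serpina3f at 0.27 (others -2.07 to -1.64, ratio 0.819), Serpina3g at 3.21 (others 1.44 to 1.67, ratio 0.871) and Serpina10 at 2.90 (others 2.29 to 2.49, ratio 0.662). It was lowest for Serpina1b at 9.75 (others 10.05 to 10.16, ratio 0.738) and Serpinc1 at 8.79 (others 8.99 to 9.10, ratio 0.64).

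Knockout ZT16 replicate 6 was highest for Serpinh1 at 2.51 (others 1.38 to 1.74, ratio 0.68). Knockout ZT16 replicate 5 was highest for Serpina5 at -5.60 (others -7.75 to -7.00, ratio 0.65), below background throughout. Knockout ZT12 replicate 3 was lowest for Serpinb8 at 6.12 (others 6.76 to 6.96, ratio 0.758). Control ZT16 replicate 6 was lowest for Serpina3h at 2.57 (others 3.12 to 3.33, ratio 0.721) and Serpina9 at -1.96 (others 0.05 to 0.90, ratio 0.701). Serpina3g was lowest in control ZT16 replicate 4 at 0.05 (others 0.51 to 0.68, ratio 0.727) and in control ZT8 replicate 3 at 0.40 (others 1.00 to 1.35, ratio 0.627). Control ZT8 replicate 6 was highest for Serpinb9 at 0.07 (others -0.35 to -0.20, ratio 0.638), and control ZT8 replicate 2 for Serping1 at 7.19 (others 7.02 to 7.07, ratio 0.722).

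The genotype effect differed between times, by limma's test of the difference or its F test over 3 times, for 6 members. The ZT16 effect minus the ZT8 effect was -3.16 for Serpina5, 1.25 for Serpinb1a, 1.76 for Serpinb1c, -0.99 for Serpinb8 and 0.82 for Serpinb9. Those of Serpina5 and Serpinb1c are measured values with groups near or below background, and not sizes of effect. With normexp that of Serpinb1c was 0.21 and not called. For Serpine2 it was -0.56, where the F test alone was past the threshold.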

How the results depend on the processing

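Of 81 called genotype differences of members, 58 kept their call and direction in every other setting that gave a value, and 67 without each array in turn. Without knockout ZT12 replicate 6, 4 lost their call, and these are not named here. The count of serpins called moved by over 1.5 times in 4 comparisons of times. In controls, ZT16 against ZT12 gave 1 with slide as a block in place of 2, and 1 to 2 without each array. In knockouts, ZT12 against ZT8 gave 2 with the compared groups alone in place of 12, and 6 to 14 without each array. ZT16 against ZT12 gave 4 in place of 7 with probes well above background on all arrays, and ZT16 against ZT8 gave 6 to 11 without each array in place of 7. The cause was not tested.

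At ZT8, ZT12 and ZT16 quantile normalization turned Serpina1a (0.0269, 0.0375 and 0.0007), Serpina1b (0.0684, 0.0244 and 0.0282) and Serpina1c (0.0395, 0.0153 and 0.0217), and at ZT8 Serpina3b (-0.0249), Serpinb9f (-0.035) and Serpinf1 (-0.0005). The authors' table turned Serpina1a (0.113, 0.0843 and 0.0398), Serpina1b (0.0578, 0.0508 and 0.0346), Serpina1c at ZT8 and ZT12 (0.0492 and 0.0231), Serpina3b and Serpinb9f at ZT8 (-0.0383 and -0.031) and Serpinb3c at ZT16 (-0.0507). Normexp turned Serpina3b at ZT8 (-0.0277), Serpina3i at ZT12 and ZT16 (-0.008 and -0.0763), Serpinb9f at ZT8 and ZT16 (-0.0446 and -0.067) and Serpinb3c at ZT16 (-0.0712). The compared groups alone turned Serpina3b at ZT8 (-0.0086). The mean of a gene's probes turned Serpinf1 at ZT8 and ZT16 (-0.0174 and -0.0282) and Serpinb8 at ZT16 (-0.1152). Without each array in turn, ZT8 values ran from -0.1236 to 0.0286 for Serpina1a, -0.1087 to 0.0232 for Serpina1b, -0.127 to 0.0263 for Serpina1c, -0.0216 to 0.0782 for Serpina3b, -0.6166 to 0.0042 for Serpina5, -0.0728 to 0.1638 for Serpinb9f and -0.0796 to 0.2582 for Serpinh1. At ZT12 they ran from -0.0659 to 0.0375 for Serpina3b, -0.1851 to 0.0683 for Serpinb9f and -0.5555 to 0.149 for Serpina9, and at ZT16 from -0.0351 to 0.1424 for Serpina3b and -0.0368 to 0.2099 for Serpinb9f.

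The median correlation of deviations was 0.0201 over 90 same-numbered pairs of mice and 0.0051 over 450 pairs with other numbers. Of the same-numbered pairs 14 were over 0.1, a count not made for the others. Whether mice shared a litter or cage cannot be read from these values. The replicate block gave 25, 29 and 28 serpins called at the 3 times in place of 24, 29 and 28. The filter on all arrays gave no value for 8 dim members. Within wash batches of 1 to 3 arrays a genotype, 80 of 81 called differences kept their sign in each, Serpina9 at ZT16 being the exception.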
